A study of Mus musculus with 3 samples.

Results

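The 67 genes described here code for histones, the proteins that package DNA, and were taken from the 13891 genes measured in single cells of the mouse intestine. They were chosen by gene symbol: 60 rows of the canonical gene clusters, whose symbols start with Hist1h, Hist2h, Hist3h or Hist4h (Hist rows hereafter), and 7 singly named variant and linker genes, H2afz, H2afy, H2afv, H2afj, H3f3a, H3f3b and H1f0. Hist1h2ao was singled out after its values had been seen, so all values are given as descriptions without a test. The mice were of the ICR strain, male and 3 weeks old when dosing started, and 6 of them were combined in each of 3 libraries. All 3 groups were dosed by gavage for 2 weeks. AOS 0 mice received vehicle (water), and B + A 0 mice received 1 injection of busulfan at 40 mg/kg and then water. B + A 10 mice received the same busulfan and then alginate oligosaccharides (AOS) at 10 mg/kg. No allele or transgene is given in the labels, and each group was 1 library of combined animals, so a difference between groups had no replicate check. The title, description and treatment labels gave the same groups, whereas the source name of both busulfan libraries named another group and was not used.

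Canonical, replication-dependent histone genes are transcribed mainly while a cell copies its DNA in S phase, and their mRNAs end in a short stem-loop instead of a poly(A) tail. The protein Slbp binds this stem-loop and guides the processing and translation of the message. The variant genes are transcribed throughout the cell cycle, and their mRNAs carry a poly(A) tail. In the intestine, division takes place in the crypt, where stem cells and their dividing progeny lie next to Paneth cells, while enterocytes and goblet cells of the villus have left the cell cycle. The libraries were made with primers that pair with poly(A), so the counts of the Hist rows stand for the part of each mRNA that such primers caught and were not read as the amount in the cell.

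Of the 60 Hist rows, 49 lie on chromosome 13, 8 on chromosome 3, 2 on chromosome 11 and 1 on chromosome 6 (GRCm38, GENCODE M21 transcripts), and 57 have 1 exon. The stem-loop was counted as the 16 letters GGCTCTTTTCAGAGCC or a form with other letters in its stem or loop, as in Hist1h4c and Hist1h3e. By this count it was found in the annotated transcript of 39 Hist rows and in 0 of the 7 variant and linker genes. Among all 21876 genes with a transcript, 0.306% held it. A further 10 Hist rows are annotated with their coding part only, where the stem-loop could not be found. Of the 50 annotated beyond it, 39 held these letters, and the rest, such as Hist1h1b, Hist2h2be and Hist1h2bc, did not. The windows of up to 30 transcript bases around it are shown for Hist1h2ao, the Hist row with the largest ratio between libraries among those with at least 100 UMIs, for its twin Hist1h2ap, and for Hist1h2ae and Hist1h1e. The capitals mark the stem-loop letters, and the sequences are those of the C57BL/6J reference, not of the ICR mice.
Hist1h2ao: aaaaaaaGGCTCTTTTCAGAGCCatccaca
Hist1h2ap: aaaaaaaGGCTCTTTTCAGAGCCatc
Hist1h2ae: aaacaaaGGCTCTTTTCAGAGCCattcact
Hist1h1e: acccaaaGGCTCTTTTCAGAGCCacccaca

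The single exon of Hist1h2ao, an H2A gene, lies at chr13:21810465-21810944 on the plus strand (480 bases), with the stem-loop in the 3′ untranslated region, ending 31 bases before the transcript end. A run of 12 A comes directly before it. Runs of at least 10 A were found in 4 Hist rows, in 2 of the variant and linker genes and in 14.6% of all genes with a transcript. The longest runs of A are shown in capitals for Hist1h2ao, for Hist1h2ae, the H2A row with the next highest count, for H3f3b, the histone gene with the most molecules, and for Hist1h2bc, the Hist row with the most molecules and no stem-loop letters in its 2 annotated exons (chr13:23684199-23692908, 1156 bases).
Hist1h2ao: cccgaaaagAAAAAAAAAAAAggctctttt
Hist1h2ae: tctaatctcgtAAAAAAAAcaaaggctctt
H3f3b: gtttcctttAAAAAAAAAAAAgtaaacctg
Hist1h2bc: tcatgtaaagcAAAAAAAAtgcgtcatgtt

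The H2A rows are close copies of each other, so reads could be assigned to the wrong copy or dropped, and the split of molecules among them is uncertain. The 390 coding bases of Hist1h2ap were identical to those of Hist1h2ao, and Hist1h2ap also holds the same run of A, yet Hist1h2ap had 8 molecules in the whole table and Hist1h2ao had 7459. Hist1h2ag and Hist1h2ad shared 99.23% of their coding bases with Hist1h2ao, and Hist1h2ae and Hist1h2af shared 98.46%.

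In the 250 bases before the transcription start (RefSeq, GRCm38.p6), 53 Hist rows had 1 promoter each, and motifs were counted on both strands. CCAAT was present in 84.9% of these 53 promoters and in 34.7% of all 22862 promoters, and TATAA in 64.2% and 24.3%. The octamer ATTTGCAT was present in 22.6% of the Hist promoters and 1.68% of all promoters, and AAACACA, the element known from linker histone H1 promoters, in 13.2% and 6.32%. The 120 bases before the start are shown for Hist1h2ao and for the H1 genes Hist1h1b and Hist1h1e, which were high in the same cells. The capitals mark these motifs on either strand, and in Hist1h1b the TATAA matches of both strands overlap.
Hist1h2ao, chr13:21810247-21810366, plus strand: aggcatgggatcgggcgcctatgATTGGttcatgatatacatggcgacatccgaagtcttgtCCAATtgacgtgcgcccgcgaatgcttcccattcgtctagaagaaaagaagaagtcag
Hist1h1b, chr13:21780626-21780745, minus strand: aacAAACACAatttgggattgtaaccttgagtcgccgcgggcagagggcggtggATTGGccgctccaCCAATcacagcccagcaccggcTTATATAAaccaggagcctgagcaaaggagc
Hist1h1e, chr13:23622559-23622678, minus strand: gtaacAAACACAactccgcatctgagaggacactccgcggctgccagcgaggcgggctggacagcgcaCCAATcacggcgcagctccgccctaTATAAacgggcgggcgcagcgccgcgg
The RefSeq start of Hist1h2ao lies upstream of the first base of the GENCODE transcript, and its stretch held CCAAT on both strands and no TATAA.

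Molecules were counted as unique molecular identifiers (UMIs, 1 for each captured mRNA). The table held 84306015 UMIs in 12653 cells: 4106 cells of AOS 0 with a median of 7371 UMIs, 3195 cells of B + A 0 with a median of 6407, and 5352 cells of B + A 10 with a median of 3505. Between 17 and 34 cell barcodes were shared by each pair of libraries. Cells were clustered without any histone gene, and clusters were named by markers as S phase-like, mitotic-like, stem-like, enterocyte-like, goblet-like and Paneth-like, with "-like" left out from here on. They held 1184, 1002, 511, 4396, 2419 and 435 cells. Another 2140 cells in 4 clusters could not be named by their markers. The S phase marker list (Mcm2, Pcna and others) summed to 2663 UMIs per 1000000 in S phase cells, 904 in mitotic cells, 1582 in stem cells and 156 in enterocytes, so the classes are enriched for a phase and are not pure. The mitotic list summed to 3312 in mitotic cells and 1713 in S phase cells. Levels of a gene are its UMIs summed over the cells of a class per 1000000 UMIs of that class, and intervals are exact 95% intervals that cover counting error only.

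Histones were a small part of the measured mRNA. The 67 genes held 366928 UMIs, 0.435% of all, and the 60 Hist rows held 8.28% of these. Hist1h2bc with 12320 UMIs and Hist1h2ao with 7459 made up 65.1% of the UMIs of the Hist rows. At least 100 UMIs were found for 37 of the 67 genes, 30 of them Hist rows. The other 30 genes had 3 to 98 UMIs each and 1258 together. Hist1h2bl (104 UMIs) was just inside this limit and Hist1h2be (98 UMIs) just outside.

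Of the 6 classes, Hist1h2ao was highest in S phase cells, next highest in mitotic cells, and low in the cells of the villus. Its level was 251 UMIs per 1000000 in S phase cells (interval 240 to 262), 171 in mitotic cells (162 to 180.3) and 32.0 in stem cells (25.3 to 39.8). It was 26.1 in Paneth cells (22.8 to 29.7), 5.01 in goblet cells (3.90 to 6.32) and 4.04 in enterocytes (3.25 to 4.97). The intervals of goblet cells and enterocytes overlapped, as did those of stem and Paneth cells. The S phase level was 62.1 times that of enterocytes (50.2 to 77.6) and 7.85 times that of stem cells (6.27 to 9.96), and the mitotic level was 0.682 times that of S phase cells (0.637 to 0.730). The last ratio ran from 0.342 to 0.831 over the alternatives in processing. The ratios to stem cells depended on how classes were set: with classes set cell by cell from marker scores (single-cell assignment), the S phase level was 1.46 times and the mitotic level 1.21 times the stem level. With this assignment goblet cells stood at 24.06, enterocytes at 4.765, stem cells at 174.3 and Paneth cells at 30.53. Without ribosomal protein and defensin genes in the totals, Paneth cells stood at 78.6 and stem cells at 46.6. In the single libraries the ratio of S phase cells to enterocytes was 53.0 for AOS 0, 66.9 for B + A 0 and 58.6 for B + A 10.

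**Figure D1:**
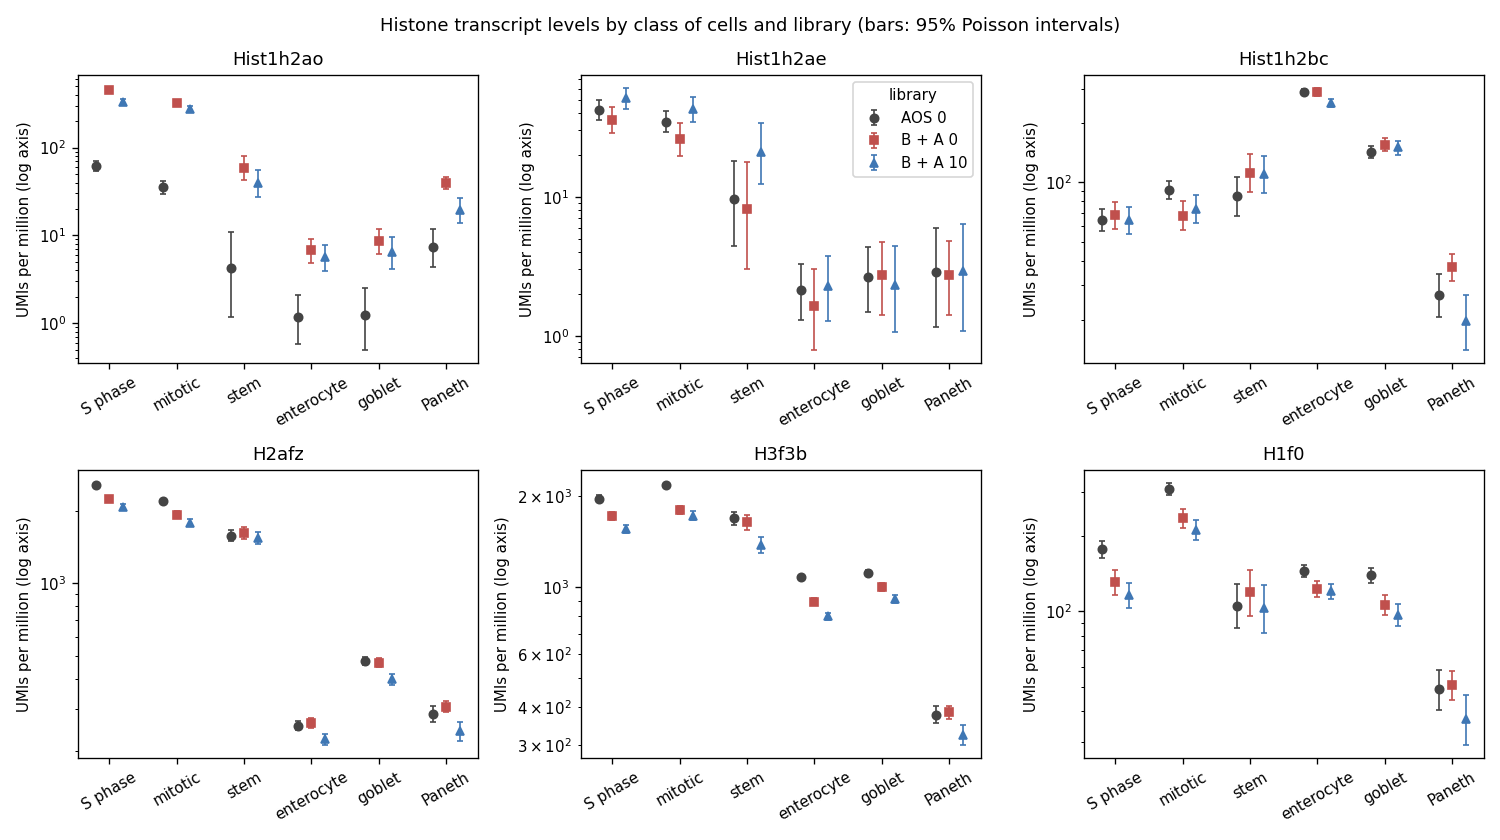
Level of 6 histone genes (UMIs per 1000000 UMIs of the class, log axis) in 6 classes of cells, with 1 point for each library and exact 95% intervals for counting error. Hist1h2ao and Hist1h2ae were highest in S phase and mitotic cells, Hist1h2bc in enterocytes, and H1f0 in mitotic cells, and the 2 busulfan libraries lie above AOS 0 for Hist1h2ao in every class.

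The molecules of Hist1h2ao were unevenly spread over cells of 1 class. Of 1184 S phase cells, 52.6% had no UMI of it, 42 cells had 10 or more, and the highest count in a cell was 37. The 118 cells with the most UMIs of it held 54% of them. H2afy, the gene of macroH2A1, served as a comparison at a similar level (277 UMIs per 1000000), with 21.2% of S phase cells at 0, 5 cells with 10 or more, and 29.4% of its UMIs in its 118 highest cells. Within B + A 0 alone, the 30 highest of 300 S phase cells held 43.4% of the Hist1h2ao UMIs and 26.1% of the H2afy UMIs. After each cell was thinned to 1000 UMIs, 17.7% of S phase cells had a Hist1h2ao UMI (47.4% before thinning), against 0.319% of enterocytes, which had left the cycle. The thinned share differed between libraries, at 4.62% of S phase cells for AOS 0, 28% for B + A 0 and 21.7% for B + A 10, so the sums above combine unlike libraries. The median depth was 6323 UMIs in S phase cells and 4369 in enterocytes.

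Of the 29 other Hist rows with at least 100 UMIs, 26 had their highest level in S phase or mitotic cells. For 16 of them the levels followed the order S phase, mitotic, stem and enterocyte, and 7 had the order of Hist1h2ao over all 6 classes. Some of these rows were near 0 in the lower classes, such as Hist1h2bl at 0.0454 UMIs per 1000000 in enterocytes, so their orders are uncertain. The share of all genes with such orders was not counted, so these counts only describe the rows. The linker histone gene Hist1h1b was 67.8-fold higher in S phase cells than in enterocytes (37.3 to 137), from 33.9 against 0.500 UMIs per 1000000. Hist1h2ae, an H2A gene, reached 43.1 in S phase cells, 34.6 in mitotic cells, 13.0 in stem cells and 2.04 in enterocytes. Its ratio of S phase cells to enterocytes was 21.1 (15.4 to 29.4). The linker histone gene Hist1h1e was at 44.4, 40.7, 15.4 and 9.31 in the same classes, with a ratio of 4.77 (4.01 to 5.68). The smaller H2A rows were also higher in S phase cells: Hist1h2af had 9.09 UMIs per 1000000 in S phase cells and 0.136 in enterocytes, and Hist2h2ac had 9.44 and 0.590. By histone type, the ratio of S phase cells to enterocytes was 38.7 for the summed H2A rows (19.9 for the 16 of them other than Hist1h2ao, interval 16.3 to 24.4), 7.99 for the H1 rows, 7.75 for the H2B rows without Hist1h2bc, 7.39 for the H3 rows and 2.65 for the H4 rows. The 58 Hist rows other than Hist1h2ao and Hist1h2bc summed to 272 UMIs per 1000000 in S phase cells (261 to 284), 223 in mitotic cells, 103 in stem cells, 52.0 in goblet cells, 32.7 in enterocytes and 30.9 in Paneth cells.

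Counted over the 37 genes with at least 100 UMIs, 30 were at least 2-fold higher in S phase cells than in enterocytes (33.1% of all 10805 genes with as many UMIs were), and 28 of them were so in each of the 3 libraries. Only Hist1h2bc was at least 2-fold lower (18.4% of all genes). The median log2 ratio was 3.16 over the 37 genes and 0.30 over all genes. Against stem cells, 17 of the 37 were at least 2-fold higher in S phase cells (5.61% of all genes) and 0 lower (3.92%), and 12 were higher in each of the 3 libraries. The shares of all genes that passed in each of the 3 libraries were not counted, so the 28 and the 12 only describe these genes. These 17 were all Hist rows, among them Hist1h2ao, Hist1h1b, Hist1h2ae and Hist1h1e. With single-cell assignment of classes the 17 became 3, and these 4 genes were 1.46, 1.54, 1.48 and 1.35 times the stem level. The class with the highest level was S phase for 23 of the 37 genes, mitotic for 9, stem for 3, and enterocyte and goblet for 1 each (Hist1h2bc and Hist1h4c). The same was not counted over all genes.

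**Figure D2:**
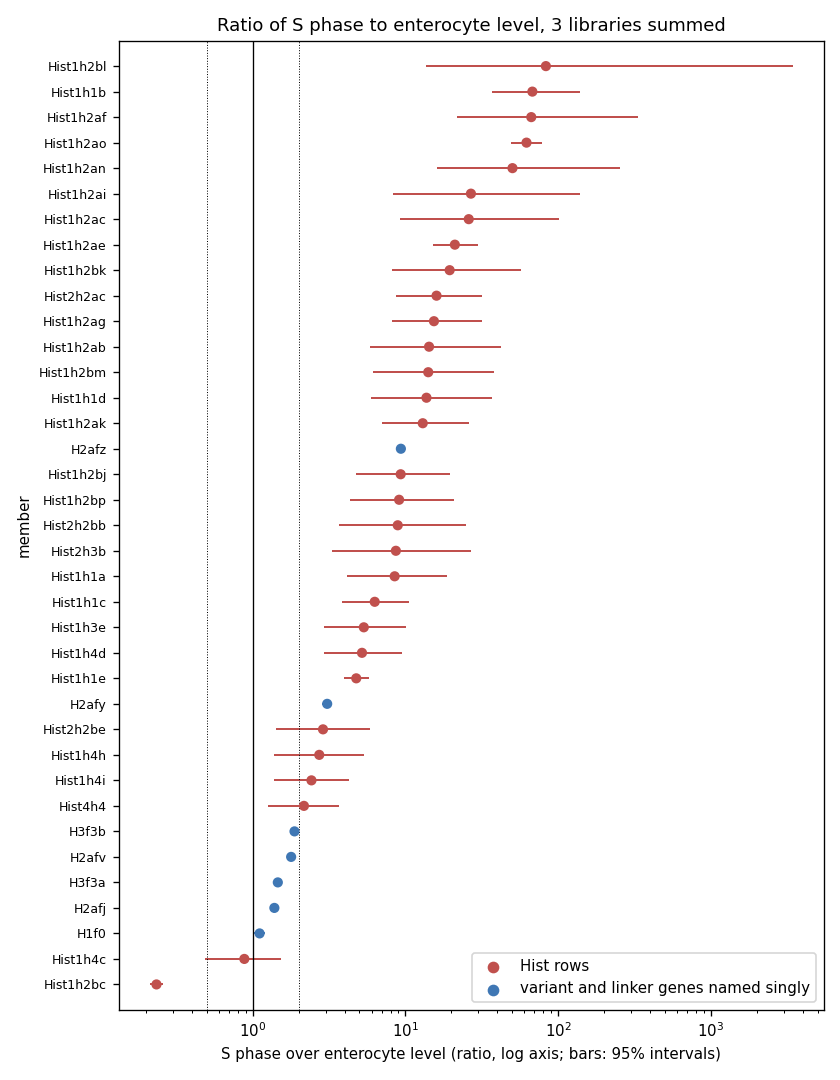
Ratio of the level in S phase cells to that in enterocytes (log axis) for the 37 histone genes with at least 100 UMIs, with exact 95% intervals for counting error, Hist rows in red and singly named genes in blue, and dotted lines at 0.5 and 2. The points run from 0.235 for Hist1h2bc to more than 60 for Hist1h2ao and Hist1h1b, and of the singly named genes H2afz and H2afy lie above 2.

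Hist1h2bc, an H2B gene, had the reverse pattern between S phase cells and enterocytes. It was at 279 UMIs per 1000000 in enterocytes (272 to 286), 149 in goblet cells (143 to 156), 102 in stem cells (89.4 to 115), 81.0 in mitotic cells (74.9 to 87.4), 65.5 in S phase cells (60.2 to 71.2) and 30.1 in Paneth cells (26.6 to 34.0). The order of mitotic and S phase cells turned round with single-cell assignment of classes and after thinning. Without ribosomal protein and defensin genes in the totals, Hist1h2bc stood at 90.8 in Paneth cells and 90.3 in S phase cells. S phase cells had 0.235 times the enterocyte level (0.215 to 0.256), and the ratio was 0.223 for AOS 0, 0.235 for B + A 0 and 0.253 for B + A 10. In enterocytes it stood at 290.3 for AOS 0, 289.7 for B + A 0 and 254 for B + A 10, so the libraries differed far less than the classes. The other H2B rows together were 7.75-fold higher in S phase cells than in enterocytes (6.17 to 9.79). After thinning, 20.5% of enterocytes and 7.10% of S phase cells had a Hist1h2bc UMI.

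The variant genes differed from each other in how far they followed division. H2afz, which codes for H2A.Z, was at 2323 UMIs per 1000000 in S phase cells, 2012 in mitotic cells, 1578 in stem cells, 451 in goblet cells, 286 in Paneth cells and 249 in enterocytes. Its ratio of S phase cells to enterocytes was 9.34 (9.07 to 9.63), and 9.99 for AOS 0, 8.46 for B + A 0 and 9.24 for B + A 10. H2afy was 3.08-fold higher in S phase cells than in enterocytes (2.90 to 3.27), from 277 against 90.1. H2afv, the gene of the second H2A.Z protein, was at 618 against 346, a ratio of 1.79 (1.72 to 1.85). The H3.3 genes H3f3b and H3f3a, whose protein replaces H3 outside S phase, were at 1772 against 943 and at 879 against 602, with ratios of 1.88 (1.84 to 1.92) and 1.46 (1.42 to 1.503). H2afj, the gene of H2A.J, had 1.39 times the enterocyte level in S phase cells (1.33 to 1.44). Of the 6 classes, H3f3a was highest in stem cells, 1081 UMIs per 1000000 (1040 to 1122).

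H1f0, the gene of linker histone H1.0, which is known to accumulate in cells that leave the cycle, was highest in mitotic cells among the 6 classes. It stood at 265 UMIs per 1000000 in mitotic cells (254 to 277), 146 in S phase cells (138 to 155), 132 in enterocytes (127 to 137), 117 in goblet cells (112 to 123), 109 in stem cells (96.2 to 123) and 47.2 in Paneth cells. The order of S phase cells and enterocytes turned round when each cell was thinned to 1000 UMIs. Without ribosomal protein and defensin genes in the totals, H1f0 stood at 142.2 in Paneth cells and 142.5 in enterocytes. Mitotic cells had 1.81 times the S phase level (1.69 to 1.95), and the ratio was 1.75 for AOS 0, 1.80 for B + A 0 and 1.82 for B + A 10. Of the 6 classes, H3f3b was also highest in mitotic cells, 1952 against 1772 in S phase cells, a ratio of 1.10 (1.08 to 1.13) that came out below 1 when histone genes took part in the clustering. Over the 37 genes, 0 were at least 2-fold higher in mitotic than in S phase cells (4.33% of all genes). Hist1h2bm and Hist1h1a were at least 2-fold lower (6.68% of all genes). For Hist1h2ao the mitotic level was above the stem level by 5.35-fold (4.26 to 6.80), and 19 of the 37 genes were at least 2-fold higher in mitotic than in stem cells (10.1% of all genes) and 0 lower (9.13%). The 5.35 became 1.21 and the 19 became 1 with single-cell assignment, and 1.64 and 4 when the libraries were clustered without joining.

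Stem cells and the differentiated cells were compared with enterocytes. In stem cells 24 of the 37 genes were at least 2-fold higher than in enterocytes (32.9% of all genes) and 4 were lower, namely Hist4h4, Hist1h2bc, Hist1h4c and Hist1h1a (20.1% of all genes). In goblet cells 8 were higher (12.3% of all genes) and 1, Hist1h2ak, was lower (21.6%). Goblet cells held 1.82 times the enterocyte level of H2afz (1.75 to 1.88) and 0.534 times that of Hist1h2bc (0.508 to 0.561). In Paneth cells 8 were higher (8.14% of all genes) and 10 were lower (67.4%). The Paneth marker list alone summed to 578200 UMIs per 1000000 in these cells, and without ribosomal protein and defensin genes in the total the Paneth level of Hist1h2ao was 78.6 instead of 26.1. This scaling raised every log2 ratio of Paneth cells to enterocytes by 1.48, and it raised those of S phase cells to enterocytes by 0.35. Hist1h1b was 7.003-fold (3.43 to 15.4) and Hist1h2ao 6.45-fold (5.03 to 8.33) higher in Paneth cells than in enterocytes, whereas the 58 other Hist rows summed to 0.946 times the enterocyte level (0.820 to 1.09), which the same scaling moves above 1. The S phase list summed to 209 UMIs per 1000000 in Paneth cells and 156 in enterocytes, and the mitotic list to 256 and 119. Of the 435 Paneth cells 81.2% had no Hist1h2ao UMI and the highest count in a cell was 17. The part of these markers in the Paneth values was not tested.

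Crypt cells (the S phase, mitotic and stem classes, 2697 cells) were also grouped by whether they had UMIs of the S phase list and of the mitotic list among 1000 UMIs drawn from each cell. Levels were then taken over all UMIs of each group. The 1466 cells with UMIs of both lists had the highest Hist1h2ao level, 255 UMIs per 1000000 (245.5 to 265). The 540 cells with S phase UMIs only had 110 (98.4 to 121), the 530 cells with mitotic UMIs only had 104 (94.4 to 115), and the 161 cells with neither had 78.2 (62.2 to 97.1). Hist1h2ao thus peaked in cells that carried both sets of markers, and the intervals of the S phase only and mitosis only groups overlapped. In the single libraries the cells with both lists stood at 59.7 for AOS 0, 476 for B + A 0 and 351 for B + A 10, and those with S phase UMIs only at 21.4, 166 and 164. Hist1h1b was also highest in cells with both lists, with 34.8, against 14.2 with mitotic UMIs only, 12.54 with S phase UMIs only and 6.68 with neither. H1f0 was instead highest in cells with mitotic UMIs only, at 240, with 204 in cells with both lists, 147 with neither and 110 with S phase UMIs only. Hist1h2bc was highest in cells with neither list, at 132 UMIs per 1000000, against 68.0 in cells with both. These groups rest on few molecules: 729 cells had exactly 1 UMI of the S phase list and 660 exactly 1 of the mitotic list.

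**Figure D3:**
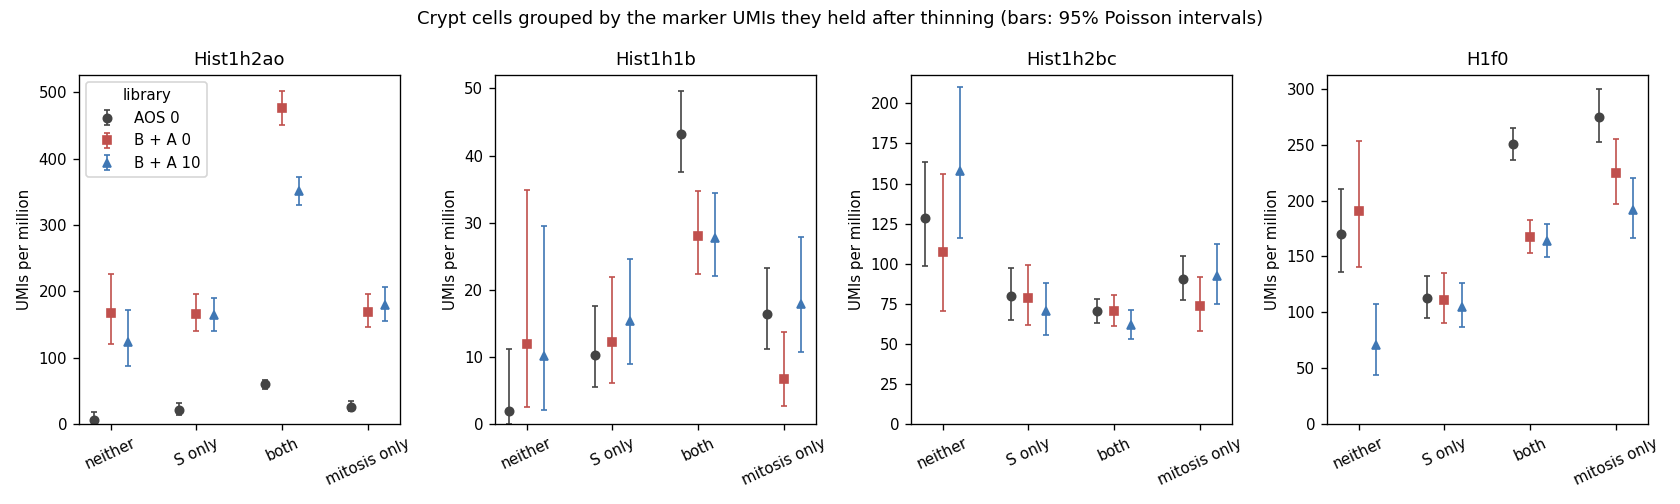
Level (UMIs per 1000000) of 4 histone genes in crypt cells grouped by whether 1000 drawn UMIs held molecules of neither list, the S phase list only, both lists or the mitotic list only, with 1 point for each library and exact 95% intervals for counting error. Hist1h2ao and Hist1h1b were highest in cells with both lists, Hist1h2bc in cells with neither, and H1f0 in cells with mitotic UMIs only.

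The same crypt cells were divided by their own Hist1h2ao UMIs among the 1000 drawn. The 58 other Hist rows summed to 197 UMIs per 1000000 in the 2327 cells with 0 (190.2 to 204), 419 in the 282 cells with 1 (391 to 449) and 474 in the 88 cells with 2 or more (423 to 530.3). Cells that carried Hist1h2ao thus carried more of the other Hist rows as well, in each library: cells with 0 against 1 had 205 against 488 in AOS 0, 159 against 329 in B + A 0 and 218 against 473 in B + A 10. Top2a, a topoisomerase gene of dividing cells, differed in the same way, at 161, 325 and 405. Hist1h2bc did not, with 79.5, 58.5 and 62.9, and H2afz differed little when the libraries were summed, with 2081, 2167 and 2197. The libraries had unequal parts in these groups, since AOS 0 gave 890 of the cells with 0 and 2 of those with 2 or more. The classes had unequal parts too. Among the 1000 drawn, 18 of 511 stem cells had a Hist1h2ao UMI, against 209 of 1184 S phase and 143 of 1002 mitotic cells. The part of the classes in these differences was not tested. Within libraries H2afz was higher in cells with 1 than with 0, at 2677 against 2260 in AOS 0, 2208 against 1964 in B + A 0 and 1954 against 1855 in B + A 10. The S phase list stood at 1701, 2143 and 2504 UMIs per 1000000 over the same 3 groups of cells, whose median depths were 6026, 5797 and 6437 UMIs.

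**Figure D4:**
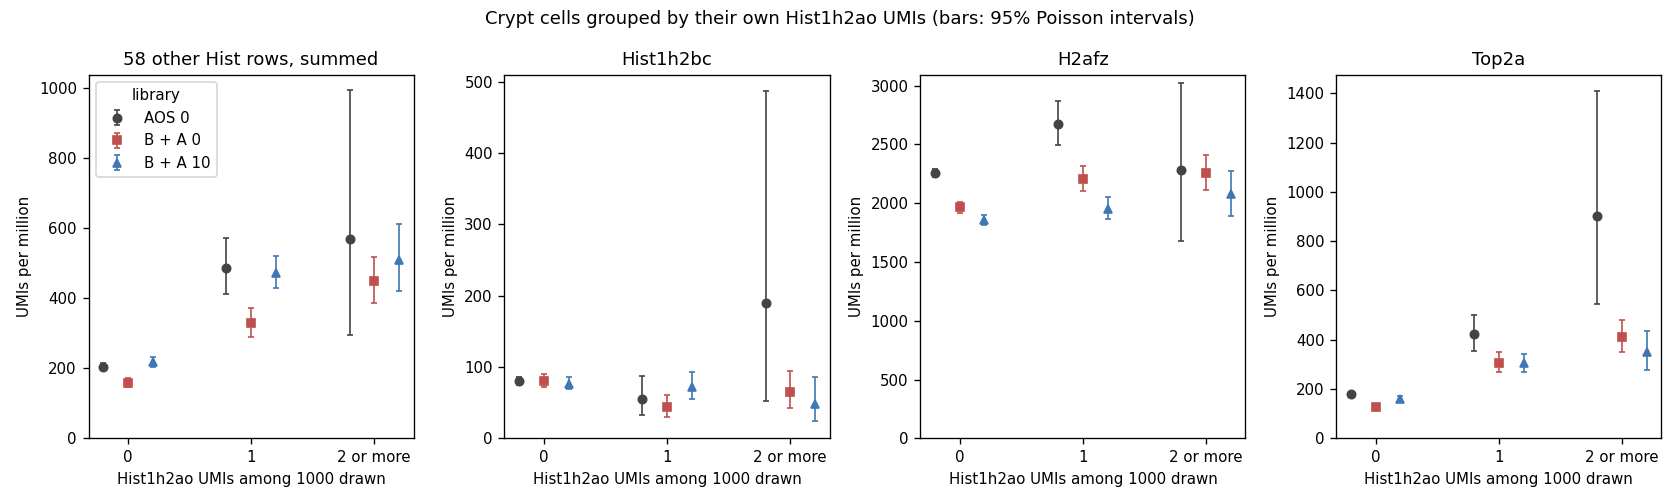
Level (UMIs per 1000000) of the 58 other Hist rows summed, Hist1h2bc, H2afz and Top2a in crypt cells with 0, 1 or 2 or more Hist1h2ao UMIs among 1000 drawn UMIs, with exact 95% intervals for counting error. There is 1 point for each library. In each library the summed Hist rows and Top2a were higher in cells with 1 than with 0. H2afz was higher too, at 2677 against 2260 in AOS 0, 2208 against 1964 in B + A 0 and 1954 against 1855 in B + A 10. The AOS 0 points at 2 or more rest on 2 cells.

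Between the libraries, Hist1h2ao differed more than the other 11 histone genes with at least 100 UMIs in S phase cells. It was higher in both busulfan libraries than in AOS 0 in each of the 6 classes. In S phase cells it stood at 62.1 UMIs per 1000000 in AOS 0 (223 UMIs in 390 cells), 451 in B + A 0 (1081 UMIs in 300 cells) and 330.4 in B + A 10 (822 UMIs in 494 cells), and the 3 intervals did not overlap. The B + A 0 level was 7.26 times that of AOS 0 (6.28 to 8.42), the B + A 10 level 5.32 times (4.58 to 6.19), and the B + A 10 level 0.733 times that of B + A 0 (0.668 to 0.803). Among the 6755 genes with at least 100 UMIs in S phase cells, the ratio of Hist1h2ao ranked 1 from the top for B + A 0 against AOS 0 and 3 for B + A 10 against AOS 0. The median ratio of these genes was 0.947 and 0.933. The T cell genes Gzma and Ccl5 and the enterocyte gene Lct were among the 6 highest ratios in both comparisons. The T cell marker list with Gzma, Ccl5 and Nkg7 summed to 149 UMIs per 1000000 for AOS 0, 477 for B + A 0 and 715 for B + A 10 in S phase cells, and to 146, 558 and 821 in mitotic cells, and Lct stood at 5.02, 16.3 and 24.9 in S phase cells. In the few S phase cells with no UMI of these T cell genes (157, 12 and 33 cells), chosen after seeing the data, Hist1h2ao was at 52.3, 792 and 305, so its ratios to AOS 0 were 15.1 (10.6 to 21.7) and 5.83 (3.79 to 8.83). These cells were picked by counts of 0 and made up unlike parts of the 3 libraries, so the part of T cell RNA cannot be read from them. Neither the part of T cell RNA nor that of enterocyte RNA in these values was tested.

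In mitotic cells Hist1h2ao stood at 35.3 for AOS 0, 322 for B + A 0 and 278 for B + A 10, with ratios to AOS 0 of 9.12 (7.58 to 11.03) and 7.89 (6.55 to 9.56). Stem cells showed 4.26, 59.0 and 39.8, from 4, 43 and 32 UMIs, and their ratio of B + A 0 to AOS 0 of 13.8 had a wide interval (5.03 to 53.1). The differentiated cells had low levels with the same direction. Enterocytes had 1.17, 6.74 and 5.64 UMIs per 1000000, from 11, 41 and 37 UMIs, with a ratio of B + A 0 to AOS 0 of 5.75 (2.90 to 12.4). Goblet cells had 1.23, 8.63 and 6.45, and Paneth cells had 7.39, 39.5 and 19.6 in the same order of libraries. The Paneth ratio was 5.34 for B + A 0 against AOS 0 (3.28 to 9.22) and 0.496 for B + A 10 against B + A 0 (0.343 to 0.703). Between the busulfan libraries the ratio of B + A 10 to B + A 0 was below 1 in all 6 classes, and its interval held 1 in stem cells (0.413 to 1.09), in enterocytes and in goblet cells. Over the alternatives in processing it stayed below 1 in S phase (0.672 to 0.804), Paneth and goblet cells, but reached 1.21 in mitotic cells, 1.05 in enterocytes and 1.91 in stem cells. The ratio of B + A 0 to AOS 0 stayed above 1 in every class and setting, and between 7.05 and 8.96 in S phase cells.

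**Figure D5:**
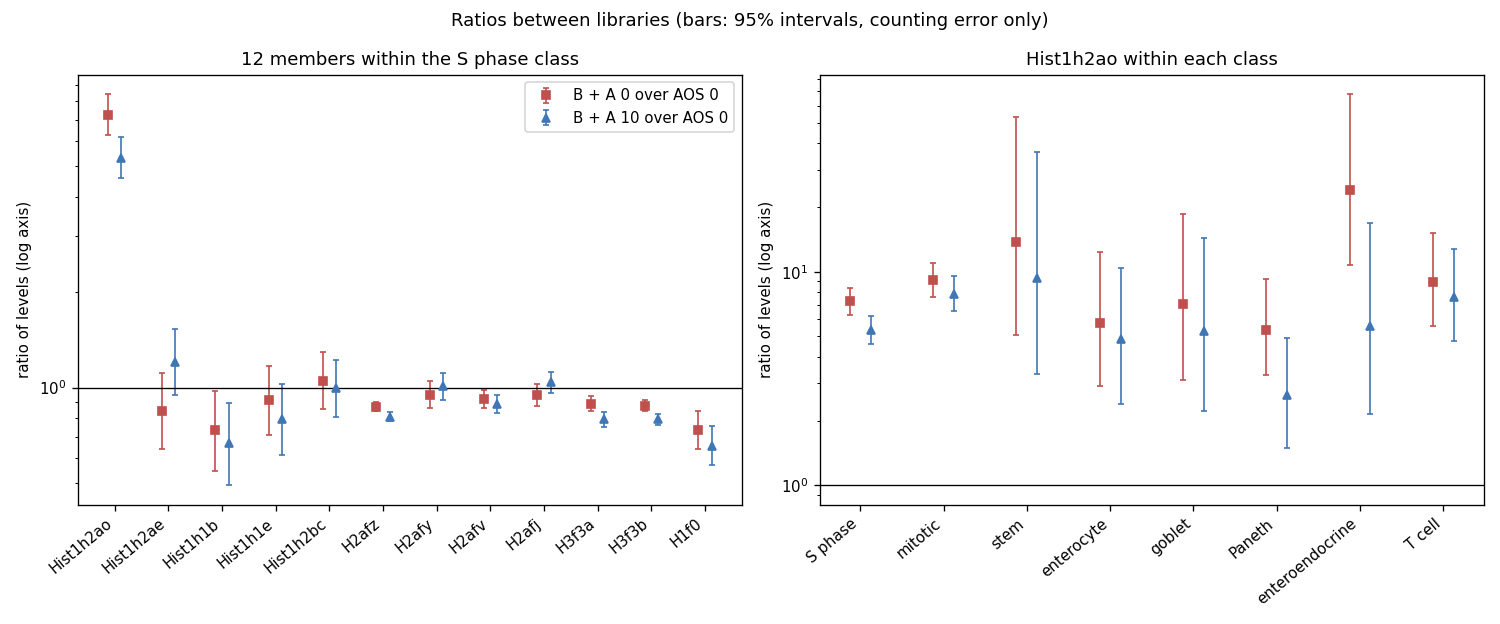
Ratios of levels of the B + A 0 and B + A 10 libraries to AOS 0 (log axis) with exact 95% intervals for counting error, for 12 histone genes in S phase cells on the left and for Hist1h2ao in 8 classes of cells on the right. Hist1h2ao stands at 7.26 and 5.32 in S phase cells while the other 11 genes lie between 0.656 and 1.21, and both Hist1h2ao ratios lie above 2 in every class.

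Among cells outside the 6 classes, the T cell-like and enteroendocrine-like cells had the same order. In the T cell-like cells (382 cells) Hist1h2ao was at 25.4 for AOS 0, 228 for B + A 0 and 193 for B + A 10, and in the enteroendocrine-like cells (156 cells) at 15.3, 370.1 and 85.2. The T cell-like cells held the S phase list at 1467 and the mitotic list at 1346 UMIs per 1000000. Their Hist1h2bc level was 78.9, 141 and 147 in the 3 libraries. They also carried the goblet list at 65140 and the enterocyte list at 26000 UMIs per 1000000, so they were not free of epithelial RNA, and its part in these values was not tested. An unnamed cluster led by Olfm4 and Top2a held the highest levels, 82.9, 574 and 469. Another, led by Ccl9 and Creb3l1, held 58.2, 441 and 373. The remaining 2 unnamed clusters had low levels and another order. Hist1h2ao stood at 5.28, 29.5 and 34.0 in the cluster led by Wfdc18 and Reg1, and at 2.02, 3.64 and 20.9, from 3, 3 and 14 UMIs, in the cluster led by Gsdmc2 and Gsdmc4.

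In sum, the other Hist rows did not share a difference of this size in S phase cells. The 58 other Hist rows summed to 255 UMIs per 1000000 in AOS 0 (239 to 272), 254 in B + A 0 (234 to 275) and 315 in B + A 10 (293 to 338). The ratio of B + A 0 to AOS 0 was 0.996 (0.898 to 1.11), and that of B + A 10 to AOS 0 was 1.23 (1.12 to 1.36). Hist1h2ae, the H2A row with the next most UMIs, stood at 42.4, 35.9 and 51.1 for AOS 0, then B + A 0, then B + A 10, so its B + A 0 level was 0.847 times that of AOS 0 (0.642 to 1.11). The smaller H2A rows held few molecules: in S phase cells Hist1h2af had 17, 22 and 38 UMIs, Hist1h2ag 22, 17 and 32, and Hist2h2ac 36, 11 and 33. The class totals behind these counts were unequal, at 3588702, 2397294 and 2487869 UMIs. Over all cells Hist1h2af stood at 2.04, 2.96 and 4.04 UMIs per 1000000 and Hist1h2ag at 2.55, 3.65 and 4.87. Both were thus higher in the busulfan libraries, while Hist2h2ac was not, at 4.198, 3.225 and 3.999. For both, the intervals of AOS 0 and B + A 0 overlapped, and those of AOS 0 and B + A 10 did not. Other H2A rows varied: Hist1h2ac stood at 1.475, 1.421 and 3.608 and Hist1h2ab at 1.446, 1.536 and 1.087. Hist1h1b was lower in the busulfan libraries in S phase cells, at 41.0, 30.03 and 27.3, with ratios to AOS 0 of 0.733 (0.545 to 0.979) and 0.667 (0.493 to 0.895). Hist1h2bc stood at 64.7, 68.0 and 64.3 in S phase cells, with overlapping intervals.

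In mitotic cells the 58 other Hist rows were lower in B + A 0 than in the other libraries, at 214 for AOS 0, 183 for B + A 0 and 275 for B + A 10. The ratio was 0.853 for B + A 0 against AOS 0 (0.753 to 0.965) and 1.51 for B + A 10 against B + A 0 (1.32 to 1.72). Hist1h1b showed it most, at 26.6, 12.8 and 22.0, a ratio of B + A 0 to AOS 0 of 0.480 (0.300 to 0.743). In stem cells the same sum stood at 71.4, 114 and 131, so B + A 0 was 1.59 times (1.14 to 2.23) and B + A 10 1.83 times AOS 0 (1.33 to 2.52). Enterocytes, at 30.6, 33.7 and 34.8, and Paneth cells, at 28.7, 30.8 and 33.8, had overlapping intervals in the 3 libraries.

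The variant and linker genes were lower in sum in the busulfan libraries, but not each of them. Summed over the 7 genes, S phase cells held 7059 UMIs per 1000000 for AOS 0, 6246 for B + A 0 and 5857 for B + A 10, with ratios to AOS 0 of 0.885 (0.867 to 0.903) and 0.830 (0.813 to 0.847). H1f0 differed most among them, at 177 for AOS 0, 131 for B + A 0 and 116 for B + A 10 in S phase cells, and at 309, 236 and 212 in mitotic cells. H3f3b stood at 1957, 1718 and 1555 and H2afz at 2559, 2230 and 2073 in S phase cells. H2afj and H2afy differed least, with ratios of B + A 10 to AOS 0 of 1.04 (0.964 to 1.12) and 1.01 (0.916 to 1.11). The S phase list itself stood at 2821, 2658 and 2439 UMIs per 1000000 in the S phase cells of the 3 libraries, the mitotic list at 1866, 1664 and 1539, and the median depth at 8358, 7056 and 4177 UMIs. The part of these in the histone values was not tested.

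Counted at 1.5-fold in S phase cells, 12 histone genes had at least 100 UMIs in the class. Hist1h2ao was the 1 of 12 that was higher in B + A 0 than in AOS 0 (2.12% of all genes), and 0 were lower (3.18%). Hist1h2ao was also the 1 that was higher in B + A 10 than in AOS 0 (4.01%), and H1f0 the 1 that was lower (5.94%). The H1f0 ratio of 0.656 passed 1.5-fold narrowly and no longer did so at resolution 1.5, with single-cell assignment, with per-cell means, with the other scaling and after thinning, which gave 0.932. Between B + A 10 and B + A 0, 0 were higher (2.83%) and 0 lower (2.53%). In mitotic cells Hist1h2ao was the 1 of 12 that was higher in B + A 0 than in AOS 0 (2.61%) and Hist1h1b the 1 that was lower (3.15%), while 3 were higher in B + A 10 than in B + A 0 (2.94%), namely Hist1h1b, Hist1h2ae and Hist1h1e, and 0 were lower (3.07%). Hist1h2ao was the 1 that was higher in B + A 10 than in AOS 0 in mitotic cells (4.04%), and 0 were lower (6.28%). In Paneth cells Hist1h2ao was the 1 of 9 that was higher in B + A 0 than in AOS 0 (21.4%), and Hist1h2ao and Hist1h2bc were lower in B + A 10 than in B + A 0 (8.37%), while Hist1h2ao was the 1 that was higher in B + A 10 than in AOS 0 (16.9%). In enterocytes Hist1h1e was the 1 of 9 that was lower in B + A 10 than in AOS 0 (3.34%). Hist1h2ao itself had under 100 UMIs in stem cells, enterocytes and goblet cells and was not counted there. Each library entered 2 of the 3 comparisons of a class, so the comparisons share their libraries.

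Genes outside the family were ranked by how closely their levels followed Hist1h2ao over 24 profiles of 8 classes in 3 libraries. The 8 most alike of 9295 genes, by Pearson r of log2 levels, were Traip (0.922), Incenp (0.868), 4930427A07Rik (0.850), Top2a (0.840), Hsph1 (0.823), Diaph3 (0.822), Cdca5 (0.821) and Mybl2 (0.819). Incenp, Top2a, Diaph3 and Cdca5 act in chromosome separation or cell division, Mybl2 is a transcription factor of the cell cycle, Traip a ubiquitin ligase of DNA replication stress, and Hsph1 a heat shock chaperone. Among histone genes Hist1h2ae was the most alike with 10 added to the levels before the log, with r of 0.759 at rank 58. Hist1h1e (0.698), Hist1h1b (0.693) and H2afz (0.663) came next, and Hist1h2bc had r of -0.21. The order of the histone genes depended on the amount added. With 1 added instead, Hist1h1b had the highest r among them, 0.803, and Hist1h2ae had 0.785. The profiles share libraries, and these values are descriptions.

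Genes that make, process or carry histones were described from a list of 41, of which 39 had at least 100 UMIs. In S phase cells 31 of the 39 were at least 2-fold higher than in enterocytes (33.1% of all genes) and 0 lower (18.4%). Hells, a chromatin remodeller, was 70.1-fold higher, the chaperone genes Chaf1b and Asf1b, which deliver new histones to copied DNA, 52.0-fold and 41.0-fold, and Nap1l1, another histone chaperone, 46.8-fold. Slbp was 5.38-fold higher (4.95 to 5.86), and Npat, a coactivator of histone transcription, 4.67-fold (3.49 to 6.29). The smallest ratios were those of Daxx (0.531), which deposits H3.3, Znhit1 (0.916) and Srcap (1.12), which act in the exchange of H2A.Z. From S phase to mitotic cells, 2 genes of the list were at least 2-fold higher (4.33% of all genes) and 11 lower (6.68%). Slbp was at 0.303 times and Npat at 0.479 times the S phase level in mitotic cells, against 0.682 (0.342 to 0.831 over the alternatives) for Hist1h2ao. Cenpa, the histone H3 variant of centromeres, was at 2.02 times, and H2afx, the H2A variant that is phosphorylated at DNA breaks, was at 1.31 times.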

How the data were processed

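Single intestinal cells were measured with the 10x Genomics 3′ kit, version 2. Per the labels and the study's methods, reads were processed with Cell Ranger 2.2.0 on mm10 (submitters' processing notes), cells with at least 200 genes and genes found in at least 3 cells were kept, and the authors deposited the natural log of 1 plus UMIs per 10000 UMIs of a cell. Whether reads of more than 1 locus were kept is not given in the sources used here.

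Whole UMIs were recovered from each cell's smallest steps (100% of 24333763 values within 0.01 of a whole number). Libraries held 35258551 (AOS 0), 26044381 (B + A 0) and 23003083 UMIs (B + A 10). Cells were joined and clustered with Seurat 5.3.0 in R 4.3.3 (canonical correlation anchors, 20 dimensions, 2000 variable genes without histone genes, resolution 0.8, 22 clusters). A cluster took the name of the marker list, of 13, with the highest mean score, unless markers of another class led its 10 top genes or fewer than 3 markers were detected. Doublets were kept: Scrublet (scanpy 1.11.5) called 15 cells, and leaving out the 681 cells of the top 5% was an alternative.

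Levels are UMIs per 1000000 with exact Poisson 95% intervals, and ratios have exact binomial intervals (Python 3.11.15, scipy 1.17.1). UMIs were not scaled to length. With 1 library per group no test was made. Calls were set at 2-fold between classes and 1.5-fold between libraries, for genes with at least 100 UMIs. Likeness to Hist1h2ao used log2 of levels plus 10 and genes with at least 300 UMIs. Calculations were tested on simulated data. All histone genes could be named, and from the list of 41 genes the 5 largest ratios (1 of them not reported here), the 3 smallest and Slbp, Npat, H2afx and Cenpa. The members and lists were chosen with earlier results of these data known. Alternatives were other resolutions, unjoined clustering, histone genes among the variable genes, cells assigned singly, per-cell means, thinning, other limits and scaling, and leaving out each library.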

Additional observations from a re-analysis of the deposited data

How the results depend on the processing

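Over 21 alternatives, 1236 of 1485 values kept their direction and size within counting error or 1.5-fold, 237 moved and 12 changed sign. Leaving out called doublets or cells under 500 genes moved none of 130 values each. Among the classes compared, the limit of 500 genes took cells only from the Paneth class (435 to 426). Levels in the other classes could therefore not change, and their values say nothing about cells with few genes. No S phase class could be named at resolution 0.4 or without joining the libraries. No paired analysis was possible because each group had 1 library.

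The limit on UMIs sets how many of the 67 histone genes are counted, 37 in the results above. Counts without a limit or with at least 1000 UMIs therefore have other totals and cannot be compared as shares. The matching shares of all genes are not given. Counts of histone genes at least 2-fold higher in S phase cells than in enterocytes (30) became 55 without a limit on UMIs and 6 with at least 1000 UMIs. Those lower (1) became 2 after thinning and 3 without a limit. For mitotic against S phase cells, the 2 lower genes became 0 at resolution 1.5 and with single-cell assignment, 14 with histone genes among the variable genes, 4 with per-cell means, 5 after thinning, 6 without a limit and 1 to 3 with a library left out. The 0 higher became 5 after thinning, 1 without a limit and 0 to 1 with a library left out. Against stem cells, the 17 genes higher in S phase cells became 3 with single-cell assignment, 35 without a limit and 4 with at least 1000 UMIs, and the 0 lower became 1 after thinning and 1 without a limit. The 19 higher in mitotic than in stem cells became 4 without joining, 1 with single-cell assignment, 32 without a limit and 5 with at least 1000 UMIs, and the 0 lower became 2 after thinning, 3 without a limit and 0 to 1 with a library left out. Between libraries in S phase cells, the 1 gene called for B + A 0 against AOS 0 became 2 at resolution 1.5 and with single-cell assignment and 5 with histone genes among the variable genes. The 0 for B + A 10 against B + A 0 became 1, 2 and 1 with single-cell assignment, histone genes among the variable genes and thinning, and the 2 for B + A 10 against AOS 0 became 1, 5 and 1 with single-cell assignment, histone genes among the variable genes and scaling without ribosomal and defensin genes. The share of S phase cells with a Hist1h2ao UMI was 47.4% without thinning, and its log2 ratio of crypt cells with S phase UMIs only to those with neither went from 0.49 to 1.06 when 2 UMIs were required. Adding the unnamed dividing clusters to the crypt cells, chosen after seeing the data, kept its direction. The ratios of Hist1h2ao between libraries in S phase and mitotic cells with no UMI of T cell genes kept theirs too. Of these 4 values, 3 moved in size. The cells were few (134, 9 and 37 in the mitotic class) and were picked by counts of 0 after seeing the data. The part of T cell RNA cannot be read from them.

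Log2 ratios changed sign for Hist1h2bc (mitotic against S phase, 0.31 to -0.023 with single-cell assignment and -0.042 after thinning; mitotic B + A 10 against AOS 0, -0.32 to 0.0217 after thinning), H2afz (mitotic against S phase, -0.21 to 0.028 with single-cell assignment; Paneth B + A 10 against AOS 0, -0.24 to 0.057 with per-cell means and 0.41 after thinning, and against B + A 0, -0.34 to 0.36 after thinning), H2afv (mitotic against S phase, 0.08 to -0.0123 with histone genes among the variable genes and -0.017 with the other scaling), H3f3b (mitotic against S phase, 0.14 to -0.04981 with histone genes among the variable genes), H1f0 (S phase against enterocyte, 0.15 to -0.15 after thinning) and Hist1h2ao (mitotic B + A 10 against B + A 0, -0.21 to 0.28 without joining). The cause was not tested.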
